A study of Mus musculus with 9 samples.

Results

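The kallikrein-related genes *Klk5* to *Klk14* were followed in a table of estimated read counts from the skin of *Supt6*-KO and control mice. Members were the table rows whose NCBI gene identifier belongs to one of these symbols. All 10 genes had a row among the 17943 rows, and all 10 passed the minimum of 10 counts summed over the 9 mice, which 16426 rows passed. The *Supt6*-KO group held 4 mice carrying K14-CreERT with *Supt6* fl/fl alleles, injected with tamoxifen on 5 days (the labels' genotype field calls them a knockdown), and skin was taken 10 days after the last injection. The control group held 5 mice, labelled wild-type, which the study's methods describe as *Supt6* fl/fl, with no transgene named, and given corn oil. The groups therefore differ in the transgene, in the drug and in *Supt6*, and these cannot be told apart. K14 drives Cre in basal keratinocytes, whose suprabasal descendants inherit the recombined allele, while cells of other lineages, such as dermal and immune cells, are not targeted. The labels name ear skin and the study's text dorsal skin. Age and sex were not given in the sources used here. The study's text places the injections in the first telogen phase of the hair cycle. Total counts were 29627341 to 30491197 per control and 30597189 to 30967107 per *Supt6*-KO mouse, about the same depth in each group.

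Kallikrein-related peptidases are secreted serine proteases made as inactive precursors, and in skin they come mainly from keratinocytes of the granular layer. KLK5 and KLK7 cut the corneodesmosomes that hold dead cells of the stratum corneum together, which lets these cells shed. KLK5 and other members can activate further members, the inhibitor LEKTI (gene *Spink5*) holds them in check, and KLK5 can cleave the receptor PAR2 (gene *F2rl1*) and the antimicrobial precursor cathelicidin (gene *Camp*). *Supt6* encodes SPT6, a histone chaperone that travels with RNA polymerase II.

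The labels were checked first on *Supt6*. It was at 74.5, 56.6, 63.6, 91.1 and 96.7 CPM in control animals against 28.6, 24.1, 21.9 and 28.4 CPM in knockout animals. No *Supt6*-KO value reached the control range, with a log2 fold change of -1.57 ± 0.18 (SE, edgeR adjusted p = 1.29e-05). CPM here means counts per unit of library size (parts per 1e6) after scaling by edgeR's TMM method, which sets the bulk of genes equal between mice. Of the marker lists, all 7 basal and all 14 suprabasal keratinocyte genes were detected in every mouse of both groups, the fewest being 231 counts of *Itgb4* in a *Supt6*-KO mouse.

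The 10 genes lie side by side on the forward strand of chromosome 7 (GRCm38, the mm10 build of the counts), in the order *Klk14*, *Klk13*, *Klk12*, *Klk11*, *Klk10*, *Klk9*, *Klk8*, *Klk7*, *Klk6* and *Klk5*. From the start of *Klk14* at 43680880 to the end of *Klk5* at 43851181 the cluster spans 170 kb. Their longest coding transcripts in GENCODE have 5 to 7 exons. *Klk14* runs from 43680880 to 43695536, *Klk13* from 43712567 to 43727864, *Klk12* from 43768891 to 43773581, *Klk11* from 43774617 to 43779263 and *Klk10* from 43781054 to 43785410. *Klk9* runs from 43791625 to 43796758, *Klk8* from 43797532 to 43803826, *Klk7* from 43811294 to 43816387, *Klk6* from 43824438 to 43832027 and *Klk5* from 43834157 to 43851181.

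Promoter sequence from RefSeq (GRCm38.p6) was matched for 10 of 10 genes, as 12 windows. Each window ends at the RefSeq start, which equals the GENCODE gene start given above for 4 of the 12 and lies downstream of it for the other 8, by 9.54 kb for *Klk14* and 8.11 kb for *Klk5*. The 250 bases before each start were searched on both strands for 5 short motifs, namely a TATA box (TATAAA), a GC box (GGGCGG), an AP-1 motif (TGANTCA), a C/EBP-like motif (TTNNGNAA) and an NF-κB-like motif (GGG, any 5 bases, then CC). None of the 12 windows held the TATA or the AP-1 letters, which 12.4% and 6.75% of all 32851 promoters hold. GC box letters were in 4 of the 12 windows (those of *Klk6*, *Klk7* and *Klk8*) and in 32.7% of all promoters. C/EBP-like letters were in 5 of the 12 windows and in 36.8% of all promoters. NF-κB-like letters were in 9 of the 12 windows, at every gene but *Klk7* and *Klk12*, and in 45.8% of all promoters. The motifs can overlap each other, and a match shows only that these letters are present. 3 windows are shown, chosen because they hold no annotated exon base and because their genes lie at opposite ends of the expression range, 2 scarce genes with large changes (*Klk14* and *Klk13*) and the most abundant gene in controls (*Klk7*). All are on the forward strand, 5′ to 3′, ending at the base before the RefSeq start, with capitals for any match to the 5 motifs. The windows are chr7:43690168-43690417 for *Klk14*, chr7:43712317-43712566 for *Klk13* and chr7:43811044-43811293 for *Klk7*.
Klk14: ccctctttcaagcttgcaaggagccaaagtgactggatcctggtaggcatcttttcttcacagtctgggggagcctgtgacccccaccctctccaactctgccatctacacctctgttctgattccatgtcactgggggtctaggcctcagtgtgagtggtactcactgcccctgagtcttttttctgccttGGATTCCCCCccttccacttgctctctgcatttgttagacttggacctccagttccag
Klk13: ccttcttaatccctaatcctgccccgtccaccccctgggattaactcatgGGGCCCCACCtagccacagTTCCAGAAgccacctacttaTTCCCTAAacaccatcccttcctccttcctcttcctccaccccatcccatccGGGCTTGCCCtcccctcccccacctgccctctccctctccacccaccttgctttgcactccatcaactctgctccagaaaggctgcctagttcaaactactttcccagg
Klk7: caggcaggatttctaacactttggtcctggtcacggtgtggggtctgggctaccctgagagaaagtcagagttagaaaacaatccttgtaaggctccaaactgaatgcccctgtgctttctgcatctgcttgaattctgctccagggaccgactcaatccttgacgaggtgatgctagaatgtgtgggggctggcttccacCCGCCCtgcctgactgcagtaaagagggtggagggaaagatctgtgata
The *Klk14* window holds 1 match, an NF-κB-like one that begins 58 bases before the RefSeq start at 43690418, inside the longer GENCODE span of the gene. The *Klk13* window holds 2 C/EBP-like and 2 NF-κB-like matches, and the *Klk7* window holds a single GC box on the reverse strand, 49 bases before the start. The windows of *Klk14* and *Klk13* thus share only the loose NF-κB-like letters. The window of *Klk12*, with a log2 fold change of 7.26, holds no match to any of the 5 motifs. That of *Klk5*, with the smallest change of the 10 genes (1.73), holds 2 NF-κB-like matches. Any link between these letters and the changes was not tested.

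All 10 kallikrein-related genes were more abundant in *Supt6*-KO skin. The log2 fold change ran from 1.73 (*Klk5*, 3.33 times) to 7.26 (*Klk12* and *Klk14*). The values of *Klk12* and *Klk14* were 6.60 and 6.63 under library totals and 5.91 and 5.95 under a scaling like that of TPM. Each of the 10 passed an adjusted p under 0.05 and a 2-fold change in edgeR's quasi-likelihood test. In TMM-scaled CPM every *Supt6*-KO mouse stood above every control for each of the 10. Across all 16426 genes tested, 20.9% were called higher by the same rule and 28.9% had every *Supt6*-KO mouse above every control. The median log2 fold change was 3.87 over the 10 genes and -0.072 over all genes tested, and 9.44% of all genes rose by as much as or more than the lowest member. The 4 genes lowest in control CPM (*Klk14*, *Klk12*, *Klk13* and *Klk6*) had the 4 largest log2 fold changes. Under a scaling like that of TPM the direction was the same for all 10, but *Klk5*, *Klk7* and *Klk11* did not pass the call. In TPM the groups overlapped for *Klk5*, *Klk10* and *Klk11*. The libraries come from whole skin, in which more or fewer keratinocytes and more or less RNA per keratinocyte cannot be told apart. The library of *Supt6*-KO mouse 4 stood apart from the other 3 in these genes and in markers of keratinocyte layers, so values are also given without it.

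**Figure D1:**
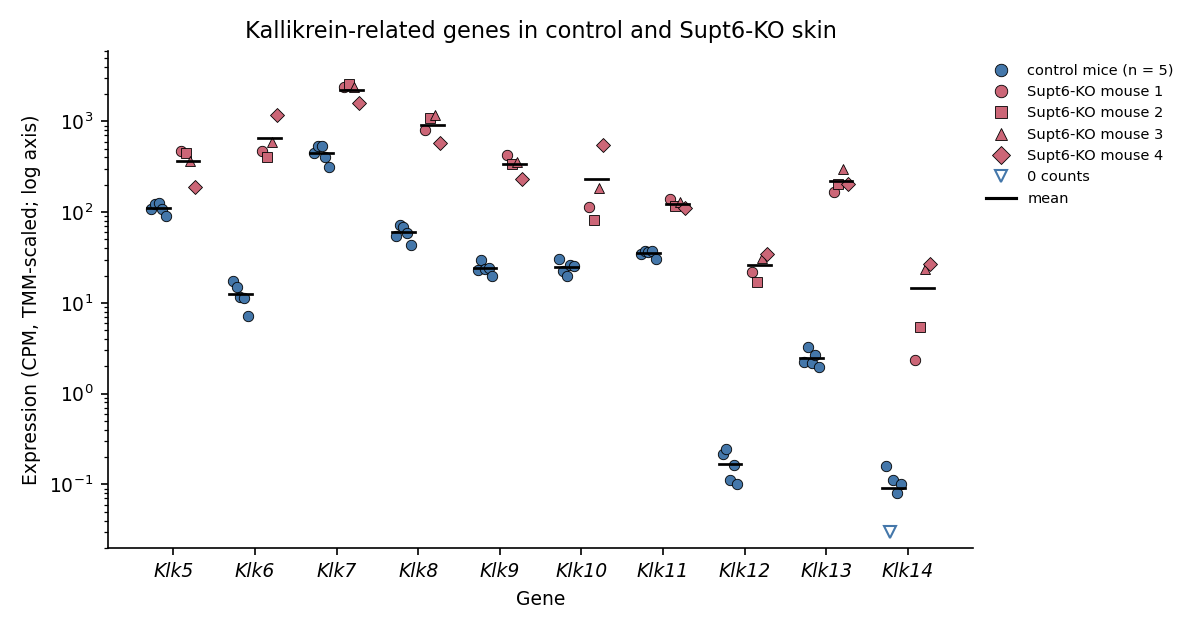
Expression of the 10 genes in each mouse, in TMM-scaled CPM on a log axis; points are mice, black bars group means, and the open triangle marks a control with 0 counts of *Klk14*. Every *Supt6*-KO point lies above every control point of its gene, and mouse 4 (diamonds) is highest for *Klk6*, *Klk10*, *Klk12* and *Klk14* and lowest for *Klk5*, *Klk7*, *Klk8*, *Klk9* and *Klk11*.

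The pair of desquamation proteases came first in control skin. *Klk7*, the chymotrypsin-like member, was at 451, 533, 542, 410 and 311 CPM in control animals against 2370, 2590, 2380 and 1580 CPM in knockout animals. The lowest *Supt6*-KO value was 1580 CPM against a highest control of 542 CPM. The mean rose from 449 ± 95.4 (SD, n = 5) to 2230 ± 447 CPM (SD, n = 4), 4.96 times (log2 fold change 2.31 ± 0.21 SE, edgeR adjusted p = 3.5e-06). *Klk5*, the trypsin-like protease that starts the cascade, was at 109, 123, 127, 107 and 90.7 CPM in control animals against 470, 451, 368 and 190 CPM in knockout animals. Its mean rose from 111 ± 14.5 to 370 ± 128 CPM, a log2 fold change of 1.73 ± 0.23 (SE, edgeR adjusted p = 4.77e-05), the smallest among the 10 genes.

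*Klk14*, another trypsin-like member that can activate KLK5, was close to undetected in control skin. It gave 6, 0, 4, 3 and 4 counts in control animals against 56, 113, 523 and 739 counts in knockout animals. The groups did not overlap, and within the *Supt6*-KO group mouse 1 had the fewest and mouse 4 the most. With 17 counts in all controls together against 1431, the ratio of the scaled sums was 166 (95% interval 103 to 286 for counting error only). edgeR's log2 fold change was 7.26 ± 0.83 (SE, edgeR adjusted p = 1.45e-05), and it was 6.79 without mouse 4.

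*Klk8* encodes neuropsin and *Klk6* neurosin, trypsin-like proteases known from brain as well as skin. *Klk8* was at 54.5, 72.9, 68.8, 58.3 and 43.7 CPM in control animals against 794, 1090, 1170 and 581 CPM in knockout animals, with a log2 fold change of 3.93 ± 0.24 (SE, edgeR adjusted p = 3.22e-07). *Klk6* was at 17.4, 15.1, 11.7, 11.4 and 7.15 CPM in control animals against 469, 401, 596 and 1170 CPM in knockout animals. Mouse 4 had the highest *Klk6* value, and the other 3, at 401 to 596 CPM, were also far above the highest control of 17.4 CPM. The log2 fold change of *Klk6* was 5.71 ± 0.38 (SE, edgeR adjusted p = 5.26e-07), and it was 5.28 without mouse 4.

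*Klk13* and *Klk12* were scarce in control skin and plainly expressed in *Supt6*-KO skin. *Klk13* gave 83, 120, 78, 99 and 78 counts in control animals against 4027, 4283, 6597 and 5701 counts in knockout animals, which the test put at 89.2 times (log2 fold change 6.48 ± 0.23 SE, edgeR adjusted p = 2.32e-08). *Klk12* gave 8, 9, 4, 6 and 4 counts in control animals against 528, 356, 676 and 962 counts in knockout animals. From 31 control counts in all against 2522, the ratio of the scaled sums was 160 (95% interval 113 to 237 for counting error only), and edgeR's log2 fold change was 7.26 ± 0.31 (SE, adjusted p = 5.73e-08). For both genes the spread within each group was small beside the difference, and leaving out any one mouse kept the log2 fold change of *Klk12* between 7.09 and 7.44 and that of *Klk13* between 6.29 and 6.60.

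*Klk9*, *Klk10* and *Klk11* are less studied members. *Klk9* stood at 19.6 to 29.4 CPM (median 23.6) in the controls and at 426, 336, 360 and 234 CPM in the *Supt6*-KO mice, 14.1 times (log2 fold change 3.82 ± 0.19 SE, edgeR adjusted p = 1e-07). *Klk11* was at 34.2, 37.2, 36.6, 37.7 and 30.2 CPM in control animals against 140, 116, 130 and 111 CPM in knockout animals, the narrowest spread relative to the mean among the *Supt6*-KO values of the 10 genes (a coefficient of variation of 10.4%). Its log2 fold change was 1.82 ± 0.11 (SE, edgeR adjusted p = 3.67e-07). *Klk10* gave 1147, 822, 722, 970 and 1005 counts in control animals against 2741, 1711, 4023 and 15217 counts in knockout animals (232 ± 214 CPM, SD, n = 4, in the latter). Its log2 fold change of 3.21 ± 0.47 (SE, edgeR adjusted p = 9.34e-05) fell to 2.34 without mouse 4. This library alone thus moved the size of the change by more than 1.5 times, while the call stayed under TMM scaling.

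Within the *Supt6*-KO group the genes split by how mouse 4 compared with the mean of the other 3 on the log2 CPM scale. *Klk10* was higher there by 2.19, *Klk14* by 1.97, *Klk6* by 1.28 and *Klk12* by 0.61. *Klk5* differed by -1.17, *Klk8* by -0.79, *Klk9* by -0.67 and *Klk7* by -0.63, while *Klk11* (-0.20) and *Klk13* (-0.09) were close to the other mice. This is 1 animal, and the differences are a description. The same library had the least summed suprabasal signal, 28600 CPM against 58800 to 61900 CPM in the other *Supt6*-KO mice, and the most summed basal signal, 14100 CPM against 5800 to 8400 CPM. Most of that basal sum was *Krt14* (9610 CPM) and *Krt5* (3670 CPM). Within the group *Krt14*, *Krt5*, *Itga6* and *Itgb4* were highest in mouse 4, whereas *Krt15* (239 CPM) and *Col17a1* (112 CPM) were lowest there. Without mouse 4 all 10 genes were still called higher, with log2 fold changes from 1.87 (*Klk11*) to 7.09 (*Klk12*).

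Levels of different genes can be set beside each other only per length, for which TPM was used. TPM was deposited for the 5 controls and *Supt6*-KO mouse 4, and was recomputed for all 9 mice from the counts and the gene lengths that the deposited TPM implies. With mouse 4 held out, the largest error of a recomputed member value was 3.79%. In controls the order was *Klk7* (435 ± 46.1 TPM), *Klk5* (190 ± 4.59), *Klk8* (147 ± 12.7), *Klk11* (57.0, range 53.2 to 63.7), *Klk10* (38.8 ± 9.28), *Klk9* (32.7 ± 2.51), *Klk6* (19.1 ± 5.31), *Klk13* (5.44 ± 0.873), *Klk12* (0.428 ± 0.140) and *Klk14* (0.156 ± 0.100), as means with SD (n = 5) unless a range is given. Only *Klk10* and *Klk9*, and *Klk12* and *Klk14*, overlapped with their neighbour in that order. In *Supt6*-KO skin the order was *Klk8* (788 ± 60.2 TPM), *Klk7* (778 ± 74.6), *Klk6* (414 ± 351), *Klk5* (222 ± 57.8), *Klk13* (177 ± 50.4), *Klk9* (166 ± 36.8), *Klk10* (155 ± 188), *Klk11* (74.0 ± 18.4), *Klk12* (26.2 ± 14.5) and *Klk14* (9.76 ± 10.0), each as mean ± SD with n = 4. There every neighbouring pair overlapped except *Klk11* and *Klk12*. Without mouse 4 *Klk10* averaged 61.9 ± 24.2 TPM (SD, n = 3), below *Klk11* at 67.3 ± 15.5, and *Klk6* averaged 240 ± 54.2, level with *Klk5* at 238 ± 57.3, while *Klk9* (166) came before *Klk13* (157). *Klk14* was then at 5.34 ± 5.75 TPM, so the levels of *Klk6*, *Klk10* and *Klk14* and the order of *Klk10* against *Klk11* and of *Klk13* against *Klk9* rest on this library.

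The make-up of the kallikrein-related mRNA changed along with its amount. *Klk7* and *Klk5* held 46.9% ± 2.51 and 20.6% ± 1.02 of the summed TPM of the 10 genes in controls (SD, n = 5), and 28.4% ± 4.82 and 8.24% ± 2.85 in *Supt6*-KO skin (SD, n = 4). The share of *Klk8* went from 15.9% ± 0.848 to 29.0% ± 6.47, that of *Klk6* from 2.05% ± 0.513 to 13.5% ± 8.11 and that of *Klk13* from 0.589% ± 0.0977 to 6.29% ± 1.15. For each of these 5 genes the shares of the groups did not overlap. The share of *Klk10* overlapped, at 2.86% to 5.58% in the controls and 1.58% to 11.8% in the *Supt6*-KO mice. In mouse 4 *Klk6* made up 25.5%, more than *Klk7* at 22.0% or *Klk8* at 20.6%. Shares within a mouse do not depend on the scaling between libraries.

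**Figure D2:**
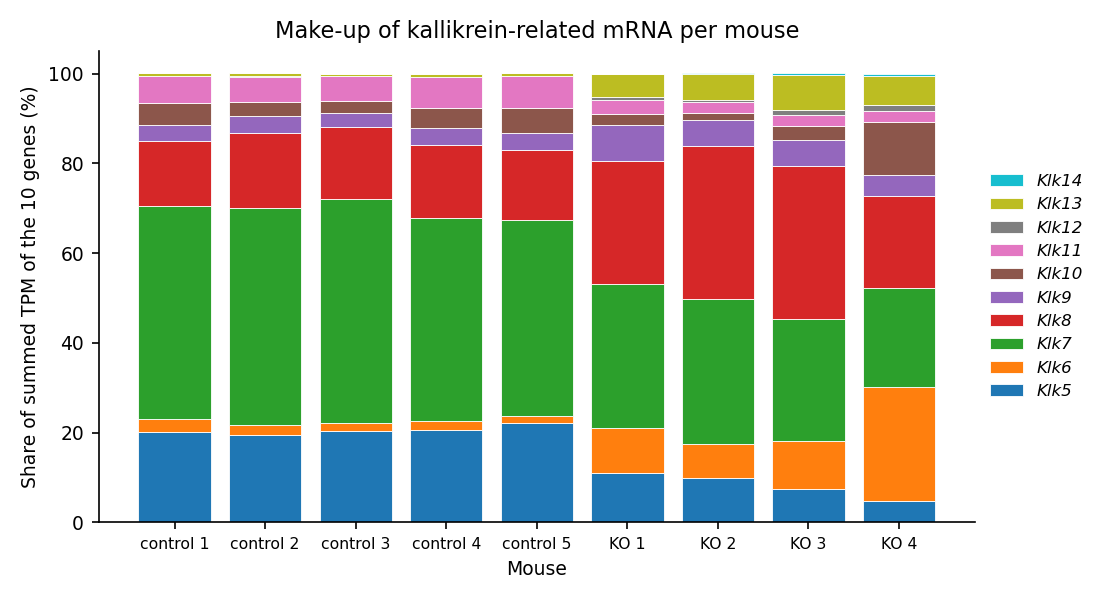
Share of each gene in the summed TPM of the 10 genes, as stacked percentages per mouse for 5 controls and 4 *Supt6*-KO mice (KO). *Klk7* and *Klk5* fill most of each control bar, and *Klk8*, *Klk6* and *Klk13* widen in every *Supt6*-KO bar.

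The size of the increase depended on how the libraries were scaled. The summed CPM of the 10 genes went from 720 ± 127 (SD, n = 5) to 5120 ± 378 (SD, n = 4), whereas their summed TPM went from 926 ± 53.5 to 2810 ± 600, 3.03 times. Without scaling beyond library totals the median of all genes fell by 0.759 on the log2 scale, and all 10 members were still called higher, from 1.00 (*Klk5*) upward, beside 8.95% of all genes called higher and 41.4% lower. When library sizes were set in proportion to the sum of count per length, as TPM does, the median of all genes fell by 1.502 and 7 of the 10 members were called higher, beside 3.51% of all genes called higher and 62.1% lower. *Klk5* (log2 fold change 0.22, adjusted p = 0.26 from edgeR) and *Klk11* (0.38, adjusted p = 0.0802) then did not pass. *Klk7* (0.84, adjusted p = 0.000142 from edgeR) stayed under a 2-fold change. Under this scaling *Klk13* was at 5.02, *Klk6* at 4.44, *Klk8* at 2.42, *Klk9* at 2.34 and *Klk10* at 2.00. Each was smaller than with TMM but still called. The TPM of *Klk10* was 65.2, 36.2, 84.3 and 435 in the *Supt6*-KO mice against 27.6 to 47.6 in the controls. The groups thus overlapped, and most of this rise was in mouse 4, without which this scaling was not fitted. In the deposited TPM, *Klk5* was 167 in mouse 4 against 186 to 199 in the controls, so its direction in that mouse turned with the unit. In recomputed TPM *Klk5* overlapped, at 171 to 302 in the *Supt6*-KO mice against 185 to 197 in the controls. So did *Klk11*, at 54.4 to 94.0 against 53.2 to 63.7. No member had a negative log2 fold change over the group under any scaling tried.

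Ratios within a library, which no scaling changes, were therefore taken for the 9 genes with counts in every mouse (*Klk14* had 0 in 1 control). Relative to *Spink5*, whose product LEKTI inhibits several kallikreins, all 9 genes were higher in every *Supt6*-KO mouse than in every control. The log2 ratio of *Klk7* to *Spink5* was -0.32, 0.16, -0.02, -0.51 and -0.65 in the controls and 2.05, 1.70, 1.82 and 1.60 in the *Supt6*-KO mice. That of *Klk5* to *Spink5* went from -2.26 ± 0.21 (SD, n = 5) to -0.86 ± 0.48 (SD, n = 4). Differences of the group means ran from 1.41 (*Klk5*) to 7.07 (*Klk12*) with a median of 3.54. Relative to the suprabasal keratins *Krt1* and *Krt10* together, all 9 genes were also higher without overlap, by 0.90 to 6.56 on the log2 scale. Relative to the basal keratins *Krt5* and *Krt14*, 8 of the 9 were higher without overlap, while *Klk5* overlapped because of mouse 4, at -6.12 against -6.39 to -5.96 in the controls. These ratios were not tested beyond the overlap of the groups.

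**Figure D3:**
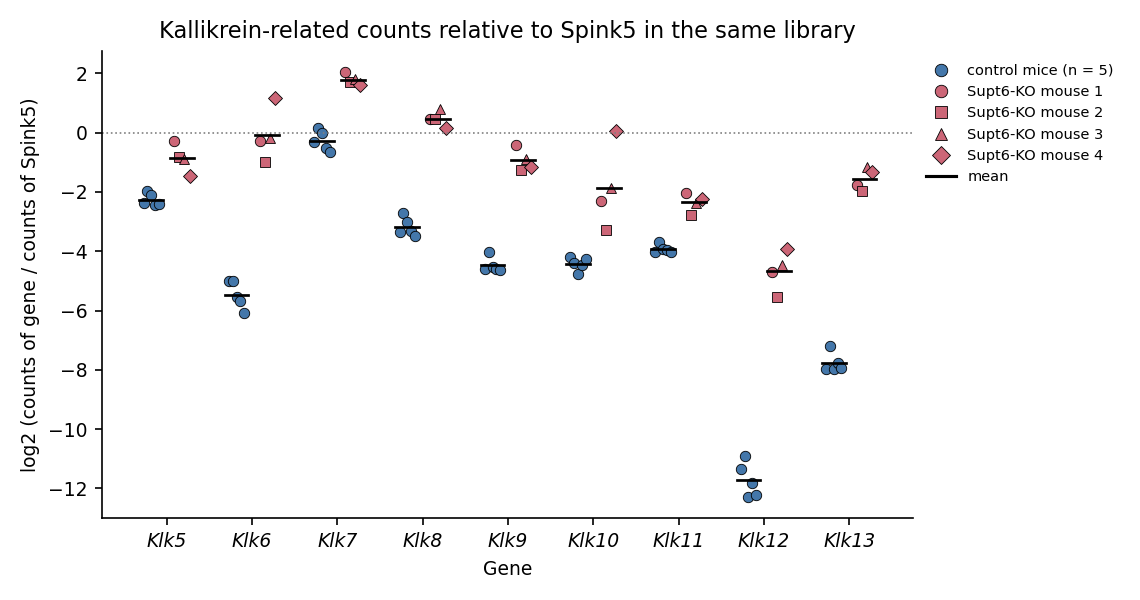
The log2 ratio of each gene's counts to *Spink5* counts in the same library, per mouse, with black bars for group means; 0 (dotted line) means equal counts. *Klk7* and *Klk8* lie above 0 in all 4 *Supt6*-KO mice, and in each of the 9 genes the groups are apart.

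*Spink5* itself differed little in amount between the groups, at 532 ± 46.5 CPM in controls against 641 ± 122 CPM in *Supt6*-KO skin (log2 fold change 0.27, adjusted p = 0.139, edgeR), with the sign turned under library totals (-0.45) and under TPM-like scaling (-1.22). Of the 6 kallikrein inhibitors listed, 5 were tested, 2 were called higher and 0 lower (2 and 0 of 5 in edgeR, 3 and 0 in DESeq2), and at an unadjusted p under 0.05 there were 3 higher and 0 lower. Under TPM-like scaling 2 were called higher and 2 lower (*Spink5* and *Serpina5*), beside 3.51% and 62.1% of all genes. With library totals 2 were called higher and 1 lower, beside 8.95% and 41.4% of all genes. The median log2 fold change of the list was 0.99 against -0.072 for all genes tested, of which 20.9% were called higher and 24.9% lower by edgeR and 21.8% and 23.0% by DESeq2. *Slpi*, a secreted inhibitor of leukocyte proteases that also inhibits KLK7, was at 2.62, 3.70, 3.16, 2.46 and 2.16 CPM in control animals against 153, 149, 295 and 254 CPM in knockout animals. Its log2 fold change was 6.24 ± 0.27 (SE, edgeR adjusted p = 5.73e-08). *Spink6*, a small inhibitor of the same Kazal type as LEKTI, gave 9 to 24 counts in control animals against 121 to 237 counts in knockout animals (log2 fold change 4.15 ± 0.29 SE, edgeR adjusted p = 6.59e-07). *Serpinb6a* was at 0.99, just under a 2-fold change (-0.45 under TPM-like scaling), and *Serpina5* at 1 to 8 counts in the controls and 0 to 2 in the *Supt6*-KO mice (adjusted p = 0.0789, edgeR).

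Among the proteases and inhibitors around kallikrein activation, 2 of 8 tested genes were called higher and 0 lower in edgeR, against 3 and 0 in DESeq2, and at an unadjusted p under 0.05 there were 6 higher and 0 lower. The 2 of 8 called higher stand beside 20.9% of all genes, a share near the background. Under TPM-like scaling 0 were called higher and 1 lower, beside 3.51% and 62.1% of all genes, and at an unadjusted p under 0.05 there were 0 higher and 6 lower, so this list turned direction with that scaling as the median of all genes moved down. The list's median log2 fold change was 0.69. *Tmprss13*, a membrane-anchored serine protease of the epidermis, was at 67.8, 72.6, 66.4, 67.7 and 48.0 CPM in control animals against 252, 270, 239 and 131 CPM in knockout animals, a log2 fold change of 1.79 ± 0.21 (SE, edgeR adjusted p = 1.5e-05), which was 0.28 under TPM-like scaling, where it was not called. *Prss8*, which encodes prostasin, rose by 1.10 ± 0.18 log2 units (SE, edgeR adjusted p = 0.000177). It was not called without *Supt6*-KO mouse 1 (0.99) or under library totals (0.37), and its sign turned under TPM-like scaling (-0.41). Matriptase, the epidermal protease that can activate kallikrein precursors, did not go the same way, since its gene *St14* stood at 74.9 ± 10.3 CPM in controls against 61.0 ± 12.7 CPM in *Supt6*-KO skin (log2 fold change -0.29, adjusted p = 0.112, edgeR). The plasminogen activators *Plau* (0.96) and *Plat* (0.73) and the matriptase inhibitors *Spint1* (0.65) and *Spint2* (0.60) were under a 2-fold change in edgeR with all mice. *Plau* was called higher in DESeq2, and in edgeR without *Supt6*-KO mouse 4 (1.09) or control 2 (1.04). Under TPM-like scaling *Plau* (-0.53), *Plat* (-0.79), *Spint1* (-0.77) and *Spint2* (-0.88) turned sign.

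The list of kallikrein substrates and receptors also holds the cytokine gene *Tslp*. Of its 10 tested genes, 3 were called higher and 2 lower, with a median log2 fold change of 0.12. Over all genes 20.9% were called higher and 24.9% lower, so these shares are near the background. Under TPM-like scaling 1 was called higher (*Tslp*) and 6 lower, beside 3.51% and 62.1% of all genes. *Dsc1* (0.58) and *Dsg1b* (0.36) lost the call. *Dsc1*, a desmosomal cadherin of the upper epidermis, averaged 393 ± 13.1 CPM in the 5 controls (SD) and reached 1680 ± 461 CPM in the 4 *Supt6*-KO mice (SD), up by a log2 fold change of 2.10 ± 0.19 (SE, edgeR adjusted p = 2.91e-06). *Dsg1b*, a desmoglein gene, rose by 1.79 on the log2 scale, whereas its neighbour *Dsg1a* was at 0.11 and *Dsg1c* at 0.29 (-0.52 without *Supt6*-KO mouse 4). Under TPM-like scaling *Dsg1a* was at -1.43 and called lower, and *Dsg1c* was at -0.95 and not called. Reads of these 3 close copies could be split differently by another counting, so their single values are uncertain. *Cdsn*, which encodes corneodesmosin, had 549 ± 38.3 CPM in controls against 588 ± 145 CPM in *Supt6*-KO skin (log2 fold change 0.10, adjusted p = 0.612, edgeR). Its sign turned under library totals (-0.58) and without *Supt6*-KO mouse 1 (-0.07), and under TPM-like scaling it was called lower (-1.31). *Tslp*, a cytokine of keratinocytes, was at 1.18, 1.48, 1.22, 0.757 and 0.586 CPM in control animals against 6.85, 10.5, 11.2 and 29.3 CPM in knockout animals, a log2 fold change of 3.79 ± 0.43 (SE, edgeR adjusted p = 1.43e-05), and 3.18 without mouse 4.

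The receptor genes went the opposite way. *F2rl1*, the gene of PAR2, was at 53.2, 52.8, 55.9, 54.0 and 46.6 CPM in control animals against 16.0, 10.4, 14.6 and 27.0 CPM in knockout animals, a log2 fold change of -1.62 ± 0.23 (SE, edgeR adjusted p = 6.7e-05). *F2r*, the gene of the thrombin receptor PAR1, had a log2 fold change of -1.55 ± 0.13 (SE, edgeR adjusted p = 2e-06). In both the *Supt6*-KO values lay wholly below the control values, as they did for 31.8% of all genes tested. *Camp*, the gene of cathelicidin, was near the detection limit in both groups, at 0.243 ± 0.0939 and 0.267 ± 0.167 CPM.

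**Figure D4:**
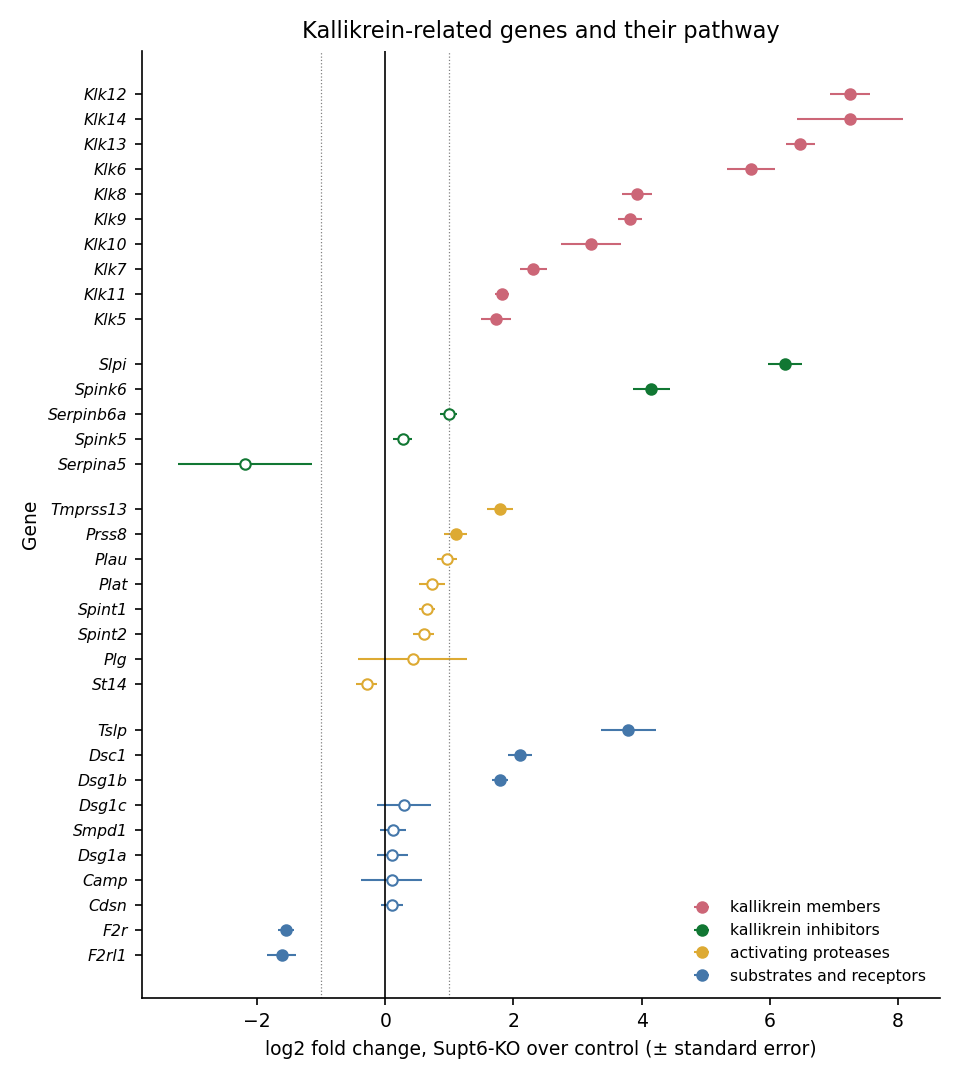
The log2 fold change of *Supt6*-KO over control with its standard error for each tested gene. Genes are grouped as the 10 kallikrein members, inhibitors, activating proteases, and substrates or receptors with the cytokine gene *Tslp*. Filled points passed the call and dotted lines mark a 2-fold change. The members lie between 1.73 and 7.26, beside *Slpi* at 6.24 and *Spink5* at 0.27.

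The other tissue kallikreins, known from salivary gland, kidney and tooth, did not add to the signal. Of 16 listed, 5 had a row and 2 were tested. *Klk1* gave 0 or 1 counts in control animals against 2, 7, 4 and 1 counts in knockout animals, which was called higher but is too few counts for a fold. *Klk1b26* had 0 to 5 and 0 to 8 counts and was not called. *Klk4* and *Klk15*, which lie next in the locus after *Klk5*, had at most 3 and 2 counts in any mouse. Of the salivary and exocrine gland list 4 of 10 genes had a row, and *Amy1* and *Bpifa2* were lower while *Aqp5*, a water channel, rose from 0.608 ± 0.148 to 46.5 ± 18.3 CPM.

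Other neighbours of the cluster were compared as well. Of the 22 annotated genes from 100 kb before *Klk14* to 100 kb after *Klk5*, the 10 members included, 17 had a row. The 3 neighbours tested all lie on the *Klk14* side, and no gene beyond *Klk5* was tested. *Ctu1*, whose start lies at -8.91 kb from that of *Klk14*, averaged 12.8 ± 1.23 CPM in controls against 7.97 ± 0.873 CPM in knockouts (log2 fold change -0.68, adjusted p = 0.00101, edgeR). *Siglece*, a sialic acid receptor gene of myeloid cells, was at 0.513 ± 0.197 and 1.17 ± 0.567 CPM (1.19, adjusted p = 0.0138, edgeR, and 0.77 and not called without mouse 4), and *Zfp719*, a zinc finger gene at the far edge, rose by 1.81 (adjusted p = 4.75e-06, edgeR). Of the 3 tested neighbours only *Zfp719* reached the range of the members, whose lowest value was 1.73. The 3 genes at the *Klk14* end, *Klk14* (7.26), *Klk13* (6.48) and *Klk12* (7.26), had the 3 largest changes of the cluster. The next gene, *Klk11*, was at 1.82, and *Klk6* (5.71) lies between *Klk7* (2.31) and *Klk5* (1.73).

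Reads were checked for what else they could come from. Of all 100-base stretches in GENCODE transcripts of the members, none was shared with another gene for 8 of the 10. In *Klk8* 19.0% and in *Klk14* 16.6% of the stretches were shared, mainly with the antisense transcript *2310002F09Rik*, which covers 382 exon bases of *Klk8* and 287 of *Klk14*. The table has no row for that transcript, and the strand setting of the counting was not given, so sense and antisense reads of *Klk8* and *Klk14* cannot be told apart.

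Markers of skin cell types also differed between the groups, in both directions. Their counts stand beside 20.9% of all genes called higher and 24.9% called lower. Suprabasal keratinocyte markers summed to 37000 to 43100 CPM in controls against 28600 to 61900 CPM in *Supt6*-KO skin, with *Krt10* the most abundant, and 7 of the 14 were called higher (among them *Krt1*, *Ivl* and *Casp14*) and 2 lower (*Krt2* and *Lor*, the latter not called without mouse 4). Of 7 basal markers 4 were called lower, and *Krt14*, the highest of them in CPM in *Supt6*-KO skin (*Krt5* in controls), was at a log2 fold change of 0.66 (edgeR adjusted p = 0.0633). Their summed level was 11600 to 13300 CPM in controls against 5800 to 14100 CPM in *Supt6*-KO skin. Neutrophil-list genes summed to 14.4 to 43.0 CPM in controls against 2520 to 6450 CPM in *Supt6*-KO skin, and 8 of 10 tested were called higher and 1 lower. Most of that sum was *S100a9* and *S100a8*, which neutrophils and keratinocytes can both express. *Retnlg* averaged 7.8 counts in controls against 460 in *Supt6*-KO skin (log2 fold change 6.59, and 5.50 without *Supt6*-KO mouse 3 or 7.23 without control 3), *Csf3r* 18.6 against 201 (4.08) and *Ngp* 1.4 against 32 (5.10, and 3.87 without *Supt6*-KO mouse 3 or 5.85 without control 5), each without overlap. *Cxcr2* was at 1.15 and lost the call without *Supt6*-KO mouse 1 (0.92) or control 5 (0.98). *Ltf* had 0 counts in every control and 3 to 16 in the *Supt6*-KO mice. *Ly6g* was called higher on at most 15 counts in any mouse. The granule gene *Mpo* was called lower, with 4 to 26 counts in controls and 0 or 1 in the *Supt6*-KO mice, and *Elane* had at most 1 count in any mouse. Macrophage genes summed to 95.9 to 230 and 241 to 303 CPM (5 of 8 higher, 1 lower, with *Csf1r* the highest in CPM in controls and *Mrc1* in *Supt6*-KO skin), and the calls of *Cd68* (1.04), *C1qa* (1.08) and *Itgam* (1.06) rest on single mice. Without *Supt6*-KO mouse 4 *Cd68* (0.78) and *C1qa* (0.99) were not called, and without control 3 none of the 3 was (0.94, 0.94 and 0.99), nor were *Cd68* (0.98) and *Itgam* (0.98) without control 2 or *Cd68* (0.99) without control 4. Hair genes summed to 24.4 to 2010 CPM in controls against 19.6 to 75.9 CPM in *Supt6*-KO skin, with 9 of 10 lower. *Krt71* was the highest of them in controls (mean 212 CPM, from 0.687 to 657 CPM) and *Tchh*, the gene not called, in *Supt6*-KO skin (48.2 CPM). Without control 1 the log2 fold change of *Krt71* was -7.66 rather than -8.73, and that of *Tchh* 0.07 rather than -1.08. Sebaceous genes summed to 6490 to 7890 CPM in controls against 1080 to 1860 CPM in *Supt6*-KO skin, with *Scd1* the most abundant. Of these, 6 of 8 were called lower, with *Elovl3* not called without *Supt6*-KO mouse 3 or 4. Muscle genes summed to 3100 to 4180 CPM in controls against 588 to 832 CPM in *Supt6*-KO skin, with *Acta1* the most abundant. All 6 of 6 were called lower. Of the sweat gland list 1 gene was higher and 2 lower of 5 tested, summed to 119 to 131 and 96.1 to 142 CPM with *Slc12a2* the most abundant. The part of any of these in the kallikrein result was not tested, beyond the within-library ratios to keratins above.

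Finally, the genes most like the kallikreins across the 9 mice were named by the correlation of their log2 CPM with the mean standardised profile of the 10 members. They were *Rbp2*, a retinol-binding protein gene (r = 0.9992), *Tdh*, a threonine dehydrogenase gene (0.9988), *Teddm3* (0.9986), *Serpinb11*, a clade B serpin gene (0.9979), and *Lce3f*, a late cornified envelope gene (0.9979). Among 13884 genes ranked, 2073 had an r of at least 0.95, since any gene that differs strongly between the groups scores high. The points share the same 9 libraries and 2 groups. *Rbp2* went from 4.62 ± 0.794 to 130 ± 20.4 CPM and *Lce3f* from 0.632 ± 0.228 to 199 ± 55.2 CPM. Each member was also set against the mean of the other 9, where *Klk13* (r = 0.997) and *Klk12* (0.996) were the most and *Klk10* (0.871) and *Klk5* (0.895) the least alike.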

How the data were processed

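Bulk RNA-Seq of 5 control and 4 *Supt6*-KO skin samples was analysed. The authors mapped the reads (their processing notes name HISAT, Bowtie2 2.3.4.3 and RSEM 1.3.1) and deposited RSEM's estimated counts for each gene in 9 mice, with TPM for 6. The annotation release was not given in the sources used here. The deposited estimated counts, 9% of them not whole, were rounded. Genes with fewer than 10 summed counts were left out, and groups were compared by edgeR 4.0.16 (R 4.3.3), a quasi-likelihood fit with TMM scaling, no covariate and Benjamini-Hochberg adjustment over all genes. A call needed an adjusted p under 0.05 and a 2-fold change. The standard error is the log2 fold change over the square root of F. Nothing states whether the replicates came from separate litters, so p-values measure the spread between these mice. Gene names were matched to RefSeq for 17917 of 17943 rows.

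The named genes were all 10 members, *Supt6*, the fixed pathway lists, the 5 most alike genes and the genes within 100 kb. The members and lists were chosen with earlier results of these data known, and 1 gene each of the substrate and sweat gland lists is not reported here and is left out of their counts. Other settings tried were library totals or upper-quartile factors for scaling, DESeq2 1.42.0, no filter or a stricter one, removal of the 50 most abundant genes, leaving out each mouse, and a replicate block. A TPM-like scaling was added after the TPM values were seen. On simulated counts for this comparison edgeR recovered 99% of 200 changed genes among 16343 and made 1 false call. In the data 3427 genes were called higher and 4088 lower, and recovery with that many genes differing was not tested. Intervals and floors cover counting error only.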

Additional observations from a re-analysis of the deposited data

Results flagged for a closer look

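In 9 of 78 groups of mice examined, 1 mouse lay far from the others of its group, where chance alone gives about 3.9. For the summed TPM of the 10 kallikrein-related genes this was control 5, at 833 TPM against a control median of 948 TPM. Control 5 also had the lowest *Tmprss13* (48.0 CPM, control median 67.7) and *Spint2* (118 CPM, control median 162). *Supt6*-KO mouse 4 had the lowest *Spint2* (179 CPM, median 254) and the highest *Dsg1c* (6.57 CPM, median 1.92) of its group. Control 3 had the highest *Dsg1a*, at 1700 CPM against a median of 1470. 3 more such values rest on few counts, *Klk1* at 0 CPM in control 3, *Klk1b26* at 0.134 CPM in control 1 and *Serpina5* at 0.096 CPM in *Supt6*-KO mouse 2.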

How the results depend on the processing

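All 158 log2 fold changes of members under the alternatives fixed at the start, leaving out each mouse included, stayed higher and called, with adjusted p-values up to 0.00086. The count of members called was 10 under each, except 8 where every mouse needed 10 counts, because *Klk12* and *Klk14* were then not tested. Under library totals 1470 genes were called higher and 6802 lower, with 1 inhibitor lower (*Serpina5*) and 1 activating protease higher (*Tmprss13*). Under the TPM-like scaling, added after seeing the data, 577 genes were higher and 10202 lower, and *Klk5* (0.22), *Klk7* (0.84) and *Klk11* (0.38) lost the call. There 2 inhibitors were lower (*Spink5* and *Serpina5*), 0 activating proteases higher and 1 lower (*St14*). On the substrate and receptor list 1 gene was higher (the cytokine gene *Tslp*) and 6 lower. Of the other tissue kallikreins 0 were higher, also 0 at an unadjusted p under 0.05 in edgeR, with 1 called by DESeq2 under its own scaling. Without a filter 2 other tissue kallikreins were higher. With 10 counts needed in every mouse 0 were, since none was tested, and 1 inhibitor was higher (*Slpi*).

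Leaving out each mouse gave 1 to 2 other tissue kallikreins higher, 1 to 3 activating proteases higher and 0 to 1 inhibitors lower, the last without *Supt6*-KO mouse 2 (*Serpina5*). Among the 10 members *Klk10* moved most, from 2.34 to 3.48. The replicate numbers share no stated origin, and the deviations of same-numbered mice correlated at -0.011 to 0.243. A replicate block over the 4 shared numbers also drops control 5. All 10 members were called higher under it, with 3139 genes higher and 3836 lower, beside 3253 and 3845 when control 5 alone was left out and 3427 and 4088 with all mice. *Klk5* was at 1.59 and *Klk10* at 2.82 under the block, against 1.67 and 3.22 without control 5. With 17 and 31 control counts, depth limits the fold of *Klk14* and *Klk12*.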
